A study of Homo sapiens with 15 samples.

Results

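Levels of 10 genes for mitochondrial chaperones and proteases were followed through serum starvation of 293T cells: HSPD1, HSPE1, HSPA9, GRPEL1, DNAJA3, TRAP1, LONP1, CLPX, CLPP and YME1L1. They were chosen by name as genes tied to the mitochondrial unfolded protein response, with no measured value in the rule. Earlier results of these data were known at the choice. All 10 of 10 were found among the 19966 genes of the table. The cells were 293T, a line derived from human embryonic kidney and expressing the large T antigen of SV40, measured by RNA-seq. Fed cells were wild type with 0 h of serum starvation, starved cells were wild type after 12 h without serum, and knockdown cells carried an SRSF1 knockdown and had the same 12 h without serum. Each group had 3 libraries. SRSF1, an SR protein, acts in the splicing of many transcripts. The labels do not say how the knockdown was made and name no mock knockdown, so the loss of SRSF1 and the knockdown procedure cannot be told apart. The SRPK1 and UPF1 knockdown samples of the series were not analysed here.

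Most mitochondrial proteins are made in the cytosol, pass the membranes unfolded and are folded inside by chaperones. HSP60 (HSPD1) with its lid HSP10 (HSPE1), and the HSP70 mortalin (HSPA9) with its partners, fold them in the matrix, while the proteases LONP1 and CLPXP in the matrix and YME1L1 at the inner membrane degrade proteins that fail. In the mitochondrial unfolded protein response, first described through the rise of HSP60 in mammalian cells, genes of this kind are switched on when unfolded proteins build up in mitochondria.

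Libraries held 11775367 to 15231651 reads in genes, and 15166 to 15720 genes were detected in each of the 9. Starved replicate 1 is not in the range of reads, because its reads were not recovered, although its values too were whole multiples of 1 step. It is also left out of the edgeR fit on 8 libraries. SRSF1 stood at 34.3, 32.8 and 31.7 FPKM (reads scaled to gene length and to the library's reads in genes) in fed cells, 42.1, 37.8 and 40.0 in starved cells and 31.2, 31.5 and 30.4 in knockdown cells. Its level fell from starved to knockdown cells (log2 fold change -0.35 ± 0.07 SE, limma adjusted p = 0.00343) while against fed cells the difference was not past the threshold (-0.08 ± 0.07, limma adjusted p = 0.455). Of 7 markers fixed for 293T, 6 were above the level filter, and of the markers of 5 other cell types, leukocyte CD14 (at most 2.64 FPKM), fibroblast COL1A1 (1.55 to 3.80) and erythroid HBB (46.8 to 49.8 in knockdown cells and at most 0.0504 elsewhere) passed it. Knockdown replicate 3 and starved replicate 2 stood apart from their groups: knockdown replicate 3 correlated at 0.976 and 0.969 with the other knockdown libraries, which correlated at 0.994, and starved replicate 2 at 0.988 and 0.987 with the other starved libraries, which correlated at 0.994. Where a call of a member changed, or a call given for another named gene was lost, without one of them, the value is given. SRSF1 without both was at -0.38 between knockdown and starved cells (limma adjusted p = 0.00118). Nothing in the labels says that replicates are separate cultures, so p-values measure the spread between these libraries, which may be technical.

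The 10 genes lie on 7 chromosomes, and 2 of them share a start region. HSPD1 (ENSG00000144381, chromosome 2, 197486584 to 197516737, minus strand, GRCh38) and HSPE1 (ENSG00000115541, chromosome 2, 197500140 to 197503449, plus strand) are read away from each other from start sites 105 bases apart. HSPA9 is on chromosome 5 (138553756 to 138575675), GRPEL1 on chromosome 4 (7058895 to 7068064), CLPX on chromosome 15 (65148219 to 65185342) and YME1L1 on chromosome 10 (27110111 to 27155266). TRAP1 (3651639 to 3717553) and DNAJA3 (4425805 to 4456775) are both on chromosome 16, and LONP1 (5691834 to 5720572) and CLPP (6361531 to 6370242) both on chromosome 19. RefSeq windows of 250 bases before and 50 after the start were at hand for 7 of the 10 genes, in 9 windows (GRCh38.p14); CLPP, YME1L1 and GRPEL1 had no entry.

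Of these windows, 5 are printed, 5′ to 3′ on the gene's own strand. They are the region shared by HSPD1 and HSPE1 as read for HSPE1 and a second HSPD1 start with heat shock elements. The others are 1 window each of LONP1, TRAP1 and DNAJA3, 3 genes whose levels differed between groups. LONP1 has another window, which is not printed. Capitals mark matches to the motifs searched on both strands.
HSPE1 (chr2:197500129-197500428, plus strand): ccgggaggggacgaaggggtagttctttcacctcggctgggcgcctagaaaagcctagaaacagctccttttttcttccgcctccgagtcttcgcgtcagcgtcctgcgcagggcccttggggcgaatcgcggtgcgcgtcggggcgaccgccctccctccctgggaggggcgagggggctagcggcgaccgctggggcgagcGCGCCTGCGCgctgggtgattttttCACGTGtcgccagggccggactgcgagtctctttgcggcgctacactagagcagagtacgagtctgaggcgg
HSPD1 (chr2:197499791-197500090, minus strand): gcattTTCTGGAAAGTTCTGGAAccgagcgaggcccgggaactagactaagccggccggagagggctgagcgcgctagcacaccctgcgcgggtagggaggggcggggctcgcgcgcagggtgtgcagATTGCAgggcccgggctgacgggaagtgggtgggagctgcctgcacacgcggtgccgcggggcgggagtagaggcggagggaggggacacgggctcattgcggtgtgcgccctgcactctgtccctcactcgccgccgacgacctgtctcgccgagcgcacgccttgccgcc
LONP1 (chr19:5720097-5720396, minus strand): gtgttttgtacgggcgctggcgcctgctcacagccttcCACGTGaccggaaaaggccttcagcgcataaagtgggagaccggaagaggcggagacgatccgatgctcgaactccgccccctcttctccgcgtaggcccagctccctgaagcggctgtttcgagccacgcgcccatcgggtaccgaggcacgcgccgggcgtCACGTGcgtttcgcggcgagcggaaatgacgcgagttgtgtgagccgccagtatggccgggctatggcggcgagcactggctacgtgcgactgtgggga
TRAP1 (chr16:3717475-3717774, minus strand): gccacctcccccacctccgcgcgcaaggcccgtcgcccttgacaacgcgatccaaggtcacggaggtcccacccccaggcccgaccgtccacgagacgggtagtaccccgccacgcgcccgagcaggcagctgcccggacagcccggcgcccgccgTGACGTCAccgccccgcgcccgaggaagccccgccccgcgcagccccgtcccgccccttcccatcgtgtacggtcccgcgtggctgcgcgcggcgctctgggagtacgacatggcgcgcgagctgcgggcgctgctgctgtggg
DNAJA3 (chr16:4425618-4425917, plus strand): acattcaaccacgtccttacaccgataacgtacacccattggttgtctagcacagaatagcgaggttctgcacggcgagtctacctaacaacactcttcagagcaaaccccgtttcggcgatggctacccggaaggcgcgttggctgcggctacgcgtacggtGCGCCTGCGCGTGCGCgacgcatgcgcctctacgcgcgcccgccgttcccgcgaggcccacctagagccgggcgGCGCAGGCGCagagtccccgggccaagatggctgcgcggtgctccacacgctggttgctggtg

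The motifs searched were the heat shock element pair (TTCNNGAA or GAANNTTC), the E-box (CACGTG), the NRF1 motif (GCGCA, any base, then GCGC), the CRE (TGACGTCA), a CHOP site (TGCAAT), a C/EBP-ATF composite (TGATGNAA) and an ETS motif (CCGGAAGT). NRF1 is a transcription factor of many nuclear genes for mitochondrial proteins. Its motif was found in windows of 5 of the 7 genes (HSPD1, HSPE1, CLPX, DNAJA3 and LONP1), against 5.78% of all 35116 windows. The LONP1 match lies in the window that is not printed (chr19:5720403-5720702). The single match in the HSPE1 window and the one in the first HSPD1 window are the same bases, as are their E-box matches, since the windows overlap, and in DNAJA3 2 of 3 matches overlap each other. The E-box was found for 4 of 7 genes (HSPA9, HSPD1, HSPE1 and LONP1) against 7.26% of all windows. Heat shock element pairs were found for HSPD1 (3 overlapping matches, in the second window) and HSPA9 (1), against 13.5% of all windows, and the CRE for TRAP1 alone, against 1.85%. The CHOP site was found once, in the second HSPD1 window (8.21% of all windows), and the composite and ETS motifs in none of the 9 (3.62% and 4.14%). The member windows held 23 to 45 CG pairs, against a median of 14 over all windows. The counts of genes take in HSPD1 and LONP1 with more than 1 window each, while the shares are of single windows, so they are unlike measures. A match describes these letters and is not evidence of binding.

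The levels of the 10 genes spanned a wide range. By mean FPKM over the 9 libraries, HSPD1 stood above 98.7% of the 11133 genes that passed the level filter (1 FPKM or more in at least 3 libraries), HSPA9 above 94.7%, LONP1 above 92.7% and TRAP1 above 90.4%. CLPP, YME1L1, DNAJA3 and GRPEL1 stood above 86.4 to 88.6% of them, CLPX above 65.0% and HSPE1 above 23.1%. In fed cells the order was HSPD1 (201 ± 3.68 FPKM, SD, n = 3), HSPA9 (62.7 ± 3.06), LONP1 (46.9 ± 2.21), TRAP1 (38.4 ± 2.55), CLPP (32.4 ± 2.94), YME1L1 (30.9 ± 0.927), DNAJA3 (24.9 ± 0.764), GRPEL1 (23.8 ± 0.901), CLPX (11.0 ± 0.796) and HSPE1 (2.69 ± 0.699). The libraries of CLPP and YME1L1 overlapped in this order, as did those of DNAJA3 and GRPEL1, and the other neighbours were separate. FPKM rests on the length in the table. For HSPD1 (7629 bases), HSPA9 (9782) and CLPP (3531) it is above the exon length in GENCODE release 29 (4245, 8254 and 2278 bases). The order is that of the table's lengths, and with the GENCODE lengths the place of CLPP, and which neighbours are separate, could differ. All 10 genes passed the filter.

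HSPE1 was measured on few reads. It had 30 to 110 reads per library in the 8 libraries with recovered reads, against 14588 to 22844 for HSPD1. The exons of HSPE1 share 14.2% of their bases with an HSPD1 exon on the other strand and 9.71% with the read-through gene HSPE1-MOB4 on the same strand, and GENCODE names 26 HSPE1 pseudogenes and 17 HSPD1 pseudogenes. How reads in such stretches were counted is not given in the sources used here, so the level of HSPE1, and to a smaller extent that of HSPD1, is uncertain. Of TRAP1 exon bases, 29.3% overlap DNASE1 on the other strand. The other 7 genes share 6.04% of their exon bases or less with other genes.

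**Figure D1:**
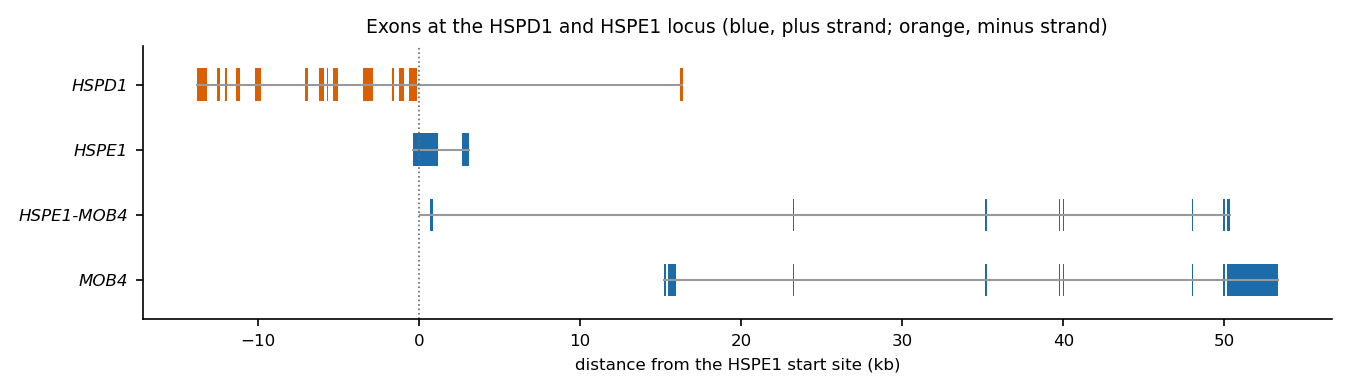
Exons of HSPD1, HSPE1, the read-through gene HSPE1-MOB4 and MOB4 in GENCODE release 29, drawn by distance from the HSPE1 start site in kb (boxes, exons of all transcripts; lines, gene spans). The main HSPD1 starts lie beside the HSPE1 start and the 2 genes are read in opposite directions, while 1 HSPD1 exon lies on the far side of HSPE1.

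Starved were first set against fed cells, which differ by 12 h of serum withdrawal in the labels. The labels name no separate cultures, so serum withdrawal and differences between cultures cannot be told apart. GRPEL1, which encodes the nucleotide exchange factor of mitochondrial HSP70, rose by 45.8%, and HSPD1, which encodes the HSP60 chaperonin, fell by 21.3%. On FPKM with all libraries no other member was called, while DNAJA3, CLPX and YME1L1 were called higher and LONP1 lower under other scalings given below. GRPEL1 stood at 23.8, 22.9 and 24.7 FPKM in fed cells and at 35.05, 36.4 and 32.5 in starved cells. All 3 starved libraries lay above all 3 fed libraries (log2 fold change 0.52 ± 0.09 SE, limma adjusted p = 0.000878). HSPD1 stood at 203, 203 and 197 FPKM in fed cells and at 165, 150 and 161 in starved cells, again without overlap (log2 fold change -0.34 ± 0.09, limma adjusted p = 0.00946). GRPEL1 was called in 22 of 22 other settings tried. HSPD1 was called in 21 of 22, its adjusted p being 0.0649 with quantile scaling. In these bulk libraries fewer cells with a transcript and less transcript per cell cannot be told apart.

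In all 2 of 10 genes were called between starved and fed cells, 1 higher and 1 lower, while 41.1% of all 11133 genes were called (15.1% higher and 26% lower). Starved and fed libraries were fully separate for 4 of the 10 genes and for 57.3% of all genes (on the deposited scale described next, 5 of the 10 and 59.3%). The count of members depends on 1 library and on the scaling: without starved replicate 2 it was 6 of 10 (3 higher and 3 lower, with 40.1% of all genes called), and with median ratio scaling 5 of 10 (42.8%). The median of the members was 0.13 on the log2 scale against -0.05 for all genes, and the median size of a member's change was 0.22 against 0.25.

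Calls of the smaller changes rest on how libraries are scaled. FPKM sets each library to the same total of reads in genes. On the deposited scale, which uses the authors' size factors, 4 members rose and 1 fell, with 43.1% of all genes called (21.5% in each direction). There DNAJA3 (0.24 ± 0.08, limma adjusted p = 0.0357), CLPX (0.31 ± 0.10, 0.0255) and YME1L1 (0.29 ± 0.09, 0.0255) joined GRPEL1 (0.63 ± 0.10), and HSPD1 still fell (-0.26 ± 0.09, limma adjusted p = 0.0310). On FPKM those 3 genes stood at 0.15 ± 0.07, 0.21 ± 0.10 and 0.19 ± 0.10 and did not pass (limma adjusted p = 0.125, 0.128 and 0.147). Over all genes, 36.8% of calls were higher on FPKM and 49.97% on the deposited scale.

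**Figure D2:**
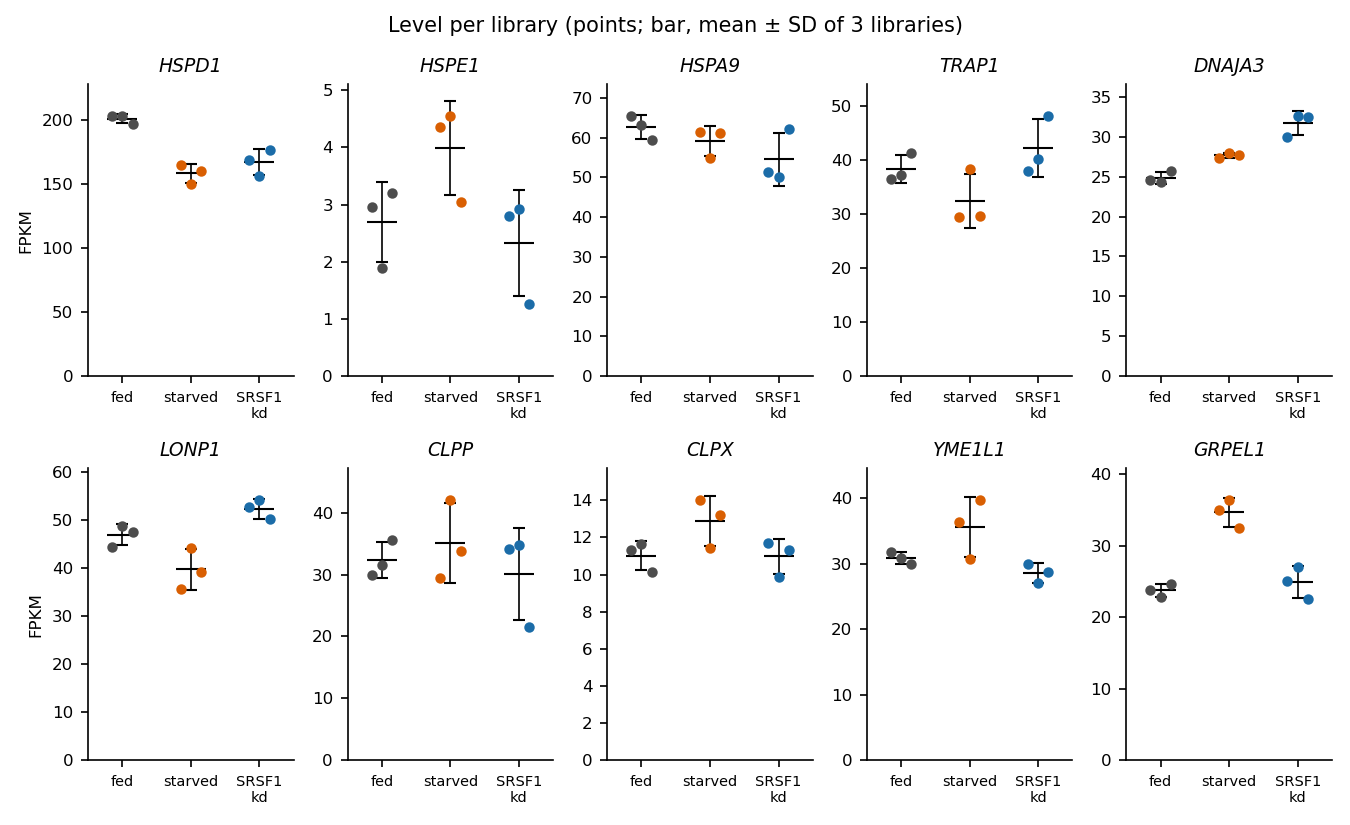
FPKM of each of the 10 genes (vertical axis, from 0) in fed, starved and SRSF1 knockdown (kd, also starved) cells; points are libraries, bars the mean and SD of 3. GRPEL1 is high in the 3 starved libraries alone, HSPD1 is highest in the 3 fed libraries, and DNAJA3 is highest in the 3 knockdown libraries.

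HSPA9, the HSP70 that draws proteins through the inner membrane and folds them, was at 65.5, 63.2 and 59.4 FPKM in fed cells and 61.4, 54.7 and 61.0 in starved cells. The groups overlapped and the change of -0.09 ± 0.10 did not pass (limma adjusted p = 0.528). It was 0.00 ± 0.10 on the deposited scale. DNAJA3, a J-domain partner of HSPA9, was at 24.6, 24.3 and 25.8 FPKM in fed cells and at 27.3, 28.0 and 27.7 in starved cells, without overlap.

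TRAP1, the HSP90 of mitochondria, was at 36.5, 37.3 and 41.3 FPKM in fed cells and 29.4, 38.3 and 29.7 in starved cells. Starved replicate 2 lay among the fed libraries and the other starved libraries below them (log2 fold change -0.24 ± 0.12, limma adjusted p = 0.141). Without starved replicate 2 the change was -0.36 and passed (limma adjusted p = 0.0280). LONP1, the matrix Lon protease, was at 44.4, 48.7 and 47.5 FPKM in fed cells and 35.6, 44.2 and 39.1 in starved cells, with starved replicate 2 again the highest of its group. Its change of -0.24 ± 0.09 did not pass (limma adjusted p = 0.0584), and without starved replicate 2 it was -0.32 (limma adjusted p = 0.0170). LONP1 was also called lower with all libraries as TPM (-0.25, limma adjusted p = 0.0418) and with quantile scaling (-0.25, 0.0491). The unchanged LONP1 estimate passed without knockdown replicate 3 (limma adjusted p = 0.0343), where the shared spread is estimated from 8 libraries.

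CLPX, the unfoldase that feeds the protease CLPP, was at 11.3, 11.6 and 10.1 FPKM in fed cells and 14.03, 11.4 and 13.2 in starved cells. YME1L1, the inner membrane protease, was at 31.8, 30.9 and 29.9 FPKM in fed cells and 36.3, 30.6 and 39.7 in starved cells. In both genes starved replicate 2 lay within the fed range and the other starved libraries above it. Without that library both passed, CLPX at 0.28 (limma adjusted p = 0.0468) and YME1L1 at 0.29 (0.0228).

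CLPP was at 30.0, 31.5 and 35.7 FPKM in fed cells, 29.5, 42.1 and 33.9 in starved cells and 34.1, 34.8 and 21.5 in knockdown cells. Its highest library was starved replicate 2 and its lowest was knockdown replicate 3, and the groups overlapped in every comparison. The change on starvation was 0.10 ± 0.18 (limma adjusted p = 0.684) and had the other sign without starved replicate 2 (-0.03). HSPE1, at 2.96, 1.89 and 3.21 FPKM in fed cells and 4.36, 4.55 and 3.04 in starved cells, also overlapped (0.44 ± 0.22, limma adjusted p = 0.143, and 0.0426 without knockdown replicate 3).

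Knockdown cells were next set against starved cells, which had the same time without serum. LONP1 was higher by 31.9% and TRAP1 by 29.9%. GRPEL1 fell by 28.2%, YME1L1 fell by 19.7% and HSPE1 fell by 41.7%. Thus 5 of 10 genes were called, 2 higher and 3 lower, where 44.5% of all genes were called (25.9% higher and 18.7% lower). Libraries were fully separate for 5 of the 10 genes and for 49.8% of all genes. The count of members was 2 of 10 with only these 2 groups in the fit (36.1% of all genes called), with edgeR on 8 libraries (36.7%) and without starved replicate 1 (35.5%), and 3 of 10 without starved replicate 3 (35.6%). On the deposited scale 1 was higher and 4 were lower, with 46.7% of all genes called (22.6% higher and 24.1% lower), and 5 of 10 members and 51% of all genes were fully separate. Both comparisons use the same starved libraries, so a high or low starved library moves them in opposite directions.

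GRPEL1 stood at 24.98, 27.0 and 22.6 FPKM in knockdown cells, below the 3 starved libraries and around the fed level (log2 fold change -0.46 ± 0.09, limma adjusted p = 0.00171). It was called in 22 of 22 other settings, at -0.36 without knockdown replicate 3 and starved replicate 2. LONP1 stood at 52.6, 54.2 and 50.1 FPKM, above all 3 starved libraries (0.40 ± 0.09, limma adjusted p = 0.00576), and reached 0.50 without the same 2 libraries. In edgeR's quasi-likelihood test on 8 libraries the LONP1 change was 0.27 and did not pass (adjusted p = 0.0645). YME1L1 stood at 29.9, 27.0 and 28.8 FPKM, below all 3 starved libraries (-0.30 ± 0.10, limma adjusted p = 0.0300). It did not pass without starved replicate 1 (0.0881), starved replicate 3 (0.122) or knockdown replicate 2 (0.0890), nor as TPM (0.0662), with quantile scaling (0.0633) or with only the 2 groups in the fit (0.0765), as limma adjusted p.

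TRAP1 stood at 38.0, 40.2 and 48.2 FPKM in knockdown cells, with knockdown replicate 3 the highest and 1 library below starved replicate 2 (0.37 ± 0.12, limma adjusted p = 0.0317). Without knockdown replicate 3 it was 0.27 and did not pass (limma adjusted p = 0.0739), nor did it without starved replicate 1 (0.115) or starved replicate 3 (0.110), or on the deposited scale (0.31 ± 0.14, limma adjusted p = 0.0860). HSPE1 stood at 2.80, 2.92 and 1.25 FPKM, the last in knockdown replicate 3, where it had the fewest reads (-0.61 ± 0.22, limma adjusted p = 0.0463). Without knockdown replicate 3 it was -0.36 and did not pass (0.124). It also lost the call without starved replicate 1 (0.131), starved replicate 2 (0.120), fed replicate 1 (0.0621) or fed replicate 3 (0.0539), as limma adjusted p.

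The other 5 genes did not pass on FPKM. DNAJA3 stood at 30.0, 32.7 and 32.5 FPKM, above all 3 starved libraries (0.19 ± 0.07, limma adjusted p = 0.0536). CLPX stood at 11.7, 9.88 and 11.3 FPKM (-0.21 ± 0.10, limma adjusted p = 0.111) and passed on the deposited scale (-0.30 ± 0.10, limma adjusted p = 0.0306) and without starved replicate 2 (-0.29, 0.0389). HSPA9 stood at 51.3, 50.2 and 62.2 FPKM, with knockdown replicate 3 above the others (-0.12 ± 0.10, limma adjusted p = 0.365). Without that library its change was -0.21 and passed (limma adjusted p = 0.0436). HSPD1 stood at 169, 157 and 176 FPKM, overlapping the starved libraries (0.08 ± 0.09, limma adjusted p = 0.495). CLPP changed by -0.23 ± 0.18 (limma adjusted p = 0.325), and by 0.12 without knockdown replicate 3 and starved replicate 2.

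**Figure D3:**
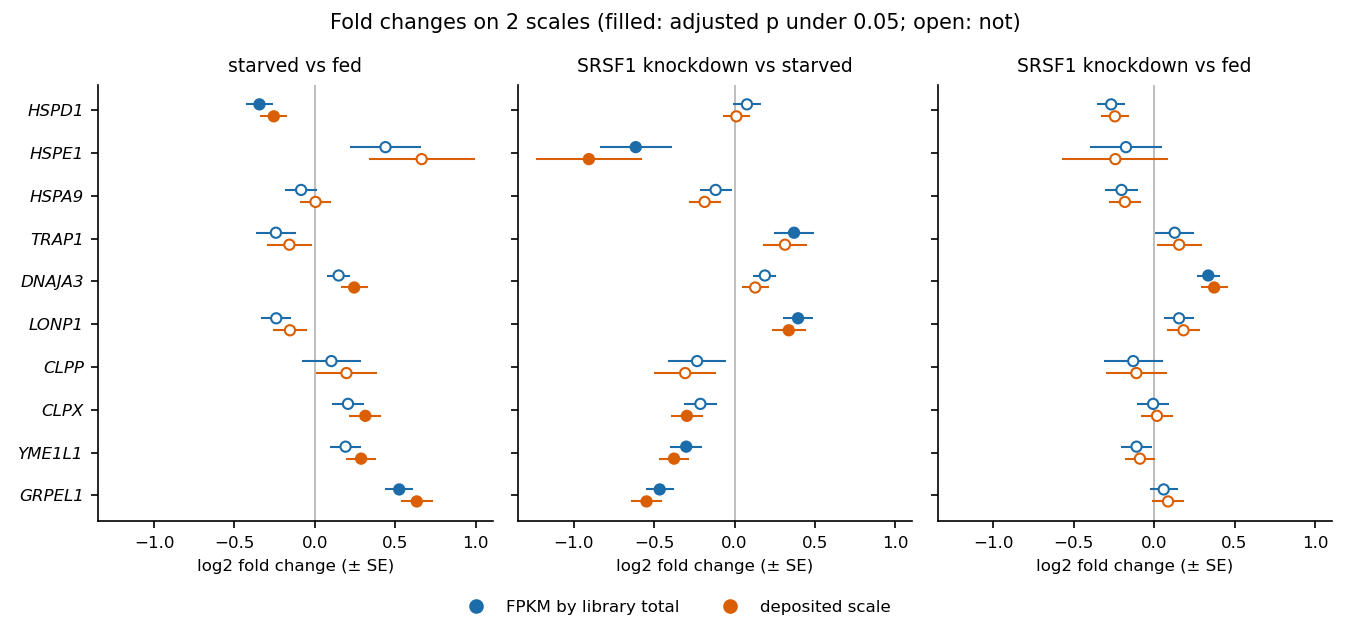
Log2 fold change with SE of the 10 genes in the 3 comparisons, on FPKM (blue) and on the deposited scale (orange); filled points passed limma's adjusted p of 0.05. GRPEL1 is filled on both scales in the first 2 comparisons and HSPD1 in the first, while DNAJA3, CLPX, YME1L1 and TRAP1 change between filled and open with the scale.

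Base composition moved with these changes. In knockdown against starved cells the median log2 fold change of all genes was -0.13 in the 2778 genes with the lowest transcript GC content and 0.11 in the 2778 with the highest. YME1L1 (40.6% GC) and CLPX (41.3%) belong to the former, LONP1 (62.9%) and CLPP (63.4%) to the latter. TRAP1 (56.0%), DNAJA3 (54.3%) and HSPE1 (50.2%) lie above the median, and GRPEL1 (46.3%), HSPD1 (44.2%) and HSPA9 (43.5%) below it. With the trend on GC removed in each library, LONP1 was still called higher (0.27 ± 0.08, limma adjusted p = 0.0170) and YME1L1 (-0.22 ± 0.07, 0.0168) and GRPEL1 (-0.52 ± 0.10, 0.00113) lower. TRAP1 was not (0.25 ± 0.12, limma adjusted p = 0.0918), and CLPP was then called lower (-0.35, 0.0267). CLPP was called in this comparison in only 1 of 22 other settings. Without knockdown replicate 3 and starved replicate 2 its change had the other sign (0.12). In starved against fed cells the same removal left GRPEL1 and HSPD1 called and added DNAJA3 (0.22, limma adjusted p = 0.0147), CLPX (0.23, 0.01004) and YME1L1 (0.22, 0.0181) as higher. What part base composition has in these changes was not tested further.

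Knockdown was also compared with fed cells. DNAJA3 was the only member called, 27.4% higher than in fed cells (0.34 ± 0.07, limma adjusted p = 0.0114), where 18.2% of all genes were called (8.43% higher and 9.75% lower). On the deposited scale it was again the only one, with 18.9% of all genes called (9.43% higher and 9.49% lower). Its 3 knockdown libraries lay above all 6 others, and the starved libraries lay between the knockdown and the fed ones. The call was lost without fed replicate 1 (0.328, adjusted p = 0.0563) or fed replicate 2 (0.321, 0.0548) in limma. HSPD1 lay below fed cells in all 3 knockdown libraries (16.9% lower in the mean, -0.27 ± 0.09), with limma adjusted p = 0.0563. It passed without starved replicate 2 (limma adjusted p = 0.0480) and without knockdown replicate 3 (-0.31, 0.0218), as in the latter did HSPA9 (-0.30, 0.0240, against -0.20 ± 0.10 and 0.178 with it). The other 7 members differed from fed cells by -0.18 to 0.15 and did not pass, with GRPEL1 at 0.06 ± 0.09 (limma adjusted p = 0.662). Knockdown and fed libraries were fully separate for 4 of 10 members and 40.8% of all genes (deposited scale, 4 and 41.2%).

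A ratio of 2 genes within a library is the same under any scaling by 1 factor per library (quantile scaling is not of that kind), and 5 such pairs, chosen after their values were seen, are given as descriptions with no test. The ratio of GRPEL1, the exchange factor, to HSPA9, its HSP70, was 0.380 ± 0.0306 in fed, 0.590 ± 0.0684 in starved and 0.463 ± 0.0904 in knockdown cells (SD, n = 3 each). It was higher in the 3 starved than in the 3 fed libraries, and knockdown libraries overlapped both. The ratio of the J-domain gene DNAJA3 to HSPA9 was 0.398 ± 0.0312 in fed, 0.470 ± 0.0365 in starved and 0.586 ± 0.0646 in knockdown cells, and no 2 groups overlapped. The starved and knockdown values nearest each other were those of starved replicate 2 (0.512) and knockdown replicate 3 (0.522). In the ratio of GRPEL1 to HSPA9 these libraries held the highest starved value (0.665) and the lowest knockdown value (0.363).

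The ratio of LONP1 to YME1L1 was 1.52 ± 0.107 in fed, 1.14 ± 0.265 in starved and 1.84 ± 0.149 in knockdown cells. The knockdown libraries lay above all others, and starved replicate 2 (1.44) lay among the fed libraries while the other starved libraries were at 0.982 and 0.985. LONP1 (62.9% GC) and YME1L1 (40.6%) are from the genes with the highest and the lowest transcript GC content. A GC trend between libraries is not removed by a ratio, and its part in this ratio was not tested. The ratio of TRAP1 to HSPD1 was 0.191 ± 0.0162 in fed, 0.206 ± 0.0426 in starved and 0.252 ± 0.0245 in knockdown cells, with starved replicate 2 (0.255) among the knockdown libraries. The ratio of CLPX to CLPP, the subunits of 1 protease, overlapped between all groups (0.343 ± 0.0517, 0.379 ± 0.103 and 0.385 ± 0.127). It ran from 0.271 in starved replicate 2 to 0.527 in knockdown replicate 3.

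**Figure D4:**
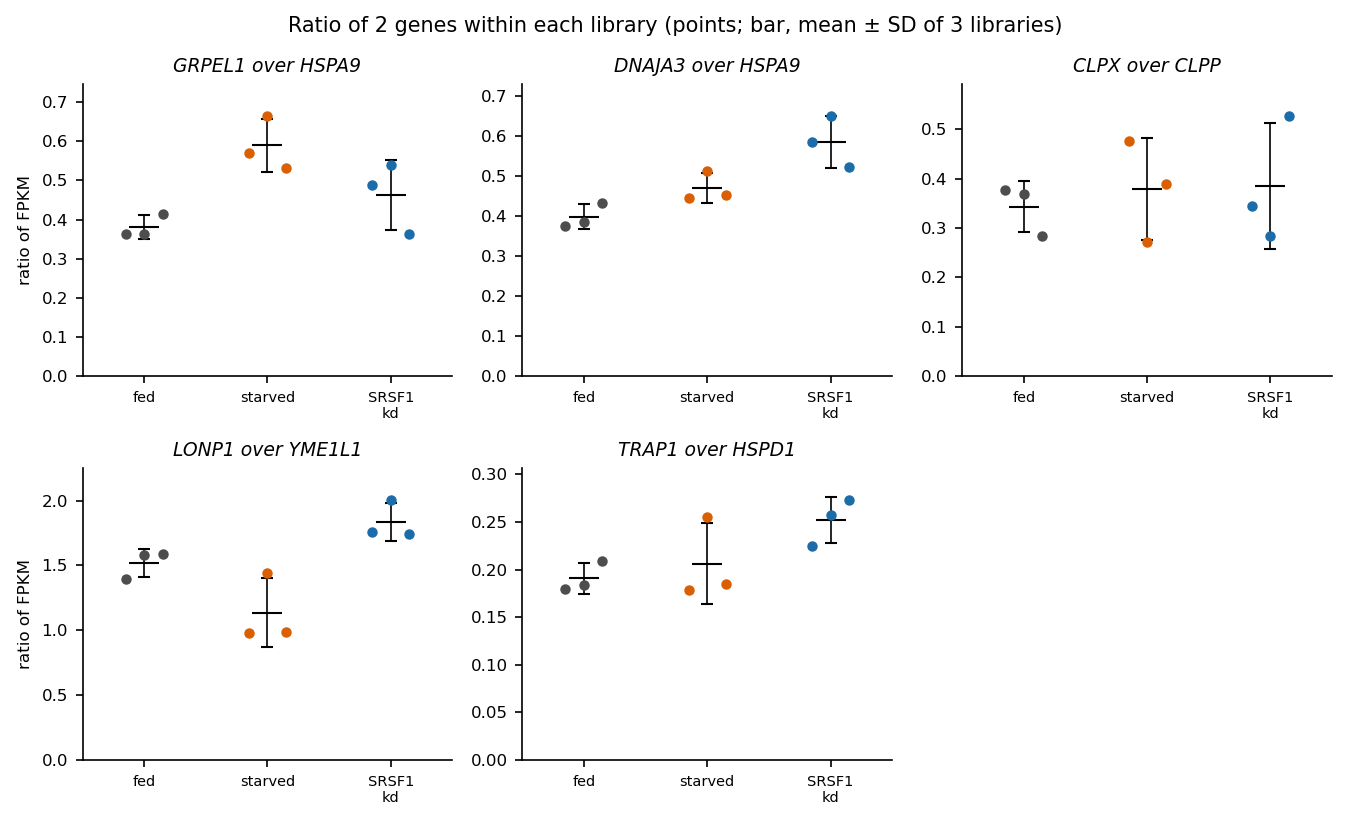
Ratios of FPKM between pairs of the 10 genes within each library (vertical axes, from 0), by group; points are libraries, bars the mean and SD of 3. GRPEL1 over HSPA9 is higher in starved than in fed libraries, DNAJA3 over HSPA9 separates the 3 groups, and CLPX over CLPP overlaps.

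The genes whose log2 levels followed a member most closely over the 9 libraries were found for HSPD1 and CLPP, as Pearson correlations over libraries that fall into 3 groups. Nearest to HSPD1 were IQGAP2 (0.985), the cell cycle kinase gene CDK6 (0.982), the methionine aminopeptidase gene METAP2 (0.980), C2CD5 (0.979) and FAM133B (0.979). METAP2, for example, stood at a mean of 49.0 FPKM in fed, 27.9 in starved and 31.7 in knockdown cells. Nearest to CLPP were the elongation factor gene EEF1B2 (0.986), CCDC124 (0.982), YDJC (0.970), VSTM2L (0.967) and GUK1 (0.965), whose highest group mean was 1.13 to 1.41 times the lowest, against 1.56 to 2.05 times for the 5 genes nearest to HSPD1. Knockdown replicate 3 and starved replicate 2 are the extremes of CLPP. Over the 7 libraries without them the correlations with CLPP were 0.785 to 0.886, and those with HSPD1 0.978 to 0.991.

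Other genes of mitochondrial protein quality control were read from lists, whose counts stand against 41.1% of all genes called on starvation (15.1% higher and 26% lower) and 44.5% in knockdown against starved cells (25.9% higher and 18.7% lower). The GrpE-like gene GRPEL2, whose product acts beside that of GRPEL1, was higher in starved cells (26.1 ± 4.16 against 17.6 FPKM, log2 fold change 0.53 ± 0.11, limma adjusted p = 0.00391) and lower in knockdown than in starved cells (-0.63 ± 0.11, 0.00139). Among 11 measured chaperones and assembly factors beside the 10 genes, 1 rose on starvation and 2 fell: the ATP synthase assembly factor gene ATPAF1 (-1.03 ± 0.10) and BCS1L (-0.99 ± 0.09), which helps assemble respiratory complex III. Both were higher in knockdown than in starved cells (0.46 ± 0.10 and 0.78 ± 0.09), 2 of 11 higher and 1 lower in all. Of 15 other mitochondrial proteases and peptidases, 0 rose on starvation by limma and 2 fell, LACTB (-0.85 ± 0.10) and MIPEP (-0.82 ± 0.10), which trims imported proteins. In the knockdown 2 of the 15 were higher than in starved cells, LACTB (0.76 ± 0.10) and MIPEP (0.38 ± 0.10), and 2 lower, the presequence protease gene PITRM1 (-0.53 ± 0.09) and OMA1 (-0.51 ± 0.14), a stress-activated protease of the inner membrane.

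Of 24 import genes, 3 rose and 3 fell on starvation, with TIMM9 (-1.45 ± 0.09), TIMM22 (-0.85 ± 0.07) and TIMM21 (-0.78 ± 0.09) lower and PAM16 (0.77 ± 0.14) higher. In knockdown against starved cells 3 were higher, among them TIMM9 (1.35 ± 0.09) and TIMM22 (0.99 ± 0.07), and 7 lower, among them PAM16 (-0.73 ± 0.14) and the channel gene TIMM23 (-0.69 ± 0.09), whose reads can be shared with a near-identical copy. Of 13 regulators of mitochondrial stress signalling, 2 rose and 3 fell on starvation. DDIT3, which encodes CHOP, rose (1.10 ± 0.22) and so did DELE1 (0.31 ± 0.07), whose product carries mitochondrial stress to the cytosol, while SIRT3 (-0.58 ± 0.10) and ATF5 (-0.40 ± 0.12, at a mean of 0.674 FPKM) fell. On the deposited scale 2 rose and 1 fell, and ATF5 did not pass (limma adjusted p = 0.0505). In the knockdown DDIT3 (-0.68 ± 0.22) and DELE1 (-0.68 ± 0.07) were lower than in starved cells, and SIRT3 (0.56 ± 0.10), ATF5 (0.52 ± 0.12) and HSF1 (0.34 ± 0.11) were higher, HSF1 not on the deposited scale (limma adjusted p = 0.0857). ATF4 mRNA did not pass in either comparison (-0.09 ± 0.11 and -0.07 ± 0.11).

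Of 20 measured cytosolic and ER relatives of the 10 genes, 10 rose and 1 fell on starvation, among them the HSP70 genes HSPA1A (2.14 ± 0.12), HSPA1B (2.12 ± 0.10), which can share reads with it, HSPA8 (0.87 ± 0.10) and HSPA5 (0.80 ± 0.09). The mitochondrial member of that family, HSPA9, stood at -0.09 ± 0.10. HSPA4, a cytosolic gene of the same list, did not pass either (-0.01 ± 0.09, limma adjusted p = 0.933). In knockdown against starved cells 1 of the 20 was higher, the chaperonin subunit gene CCT7 (0.78 ± 0.10), and 9 were lower. Among the lower were HSPA5 (-0.60 ± 0.09) and the ER HSP90 gene HSP90B1 (-0.85 ± 0.14). TRAP1, the mitochondrial HSP90, stood at 0.37 ± 0.12 with overlapping libraries. Its call was lost without knockdown replicate 3, on the deposited scale and with GC trends removed. The list medians were 0.21 and -0.21 in these comparisons, against -0.05 and 0.02 for all genes. On the deposited scale 11 rose and 1 fell, then 1 was higher and 11 lower. Whether the cytosolic and mitochondrial genes differ as groups was not tested.

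Of 10 genes for mitochondrial DNA maintenance and transcription, 4 rose and 0 fell on starvation, with TFB2M (0.54 ± 0.11) and the helicase gene TWNK (0.50 ± 0.08) among them, and 0 rose and 6 fell in the knockdown, with POLG2 (-0.62 ± 0.10) and TFB2M (-0.59 ± 0.11). The 4 of 10 called on starvation are close to the 41.1% of all genes (15.1% higher and 26% lower). The 6 of 10 called in knockdown against starved cells stand beside 44.5% of all genes (25.9% higher and 18.7% lower). The counts of this list come from limma at adjusted p under 0.05, and on the deposited scale they were 5 and 0, then 0 and 6. Of 13 mitochondrially encoded mRNAs, 0 were called on starvation on either scale, and MT-ND6 alone was higher in knockdown than in starved cells (0.65 ± 0.23, limma adjusted p = 0.0421; on the deposited scale 1 was higher and 1 lower). Of 10 genes of mitochondrial dynamics and removal, 0 were called on starvation (1 higher on the deposited scale), and in the knockdown 3 were higher, BNIP3 (1.05 ± 0.07), BNIP3L (0.48 ± 0.11) and PINK1 (0.46 ± 0.14), and 2 lower, among them OPA1 (-0.60 ± 0.15).

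Against fed cells, OMA1 (-0.62 ± 0.14), MIPEP (-0.44 ± 0.10), ATPAF1 (-0.57 ± 0.10) and TIMM23 (-0.64 ± 0.09) were lower in the knockdown, and BNIP3 (1.09 ± 0.07) and HSF1 (0.51 ± 0.11), which encodes the heat shock transcription factor, were higher. By list, 4 of 15 proteases, 1 of 11 chaperones and assembly factors and 4 of 24 import genes were lower and 0 of each higher. Of all genes 9.75% were lower and 8.43% higher. The medians of these lists were -0.06, -0.06 and -0.09 against -0.03 for all genes. Of 20 cytosolic and ER relatives 4 were higher, among them HSPA1A (1.36) and HSPA1B (1.41), and 0 lower (median 0.06). Of 13 stress regulators 1 was higher and 1 lower. Of 10 DNA maintenance genes 0 were higher and 2 lower, and of 10 dynamics and removal genes 1 was higher and 0 lower. Of 13 mitochondrially encoded mRNAs 0 were called.

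Without starved replicate 2 and knockdown replicate 3, when 54.7%, 56.5% and 32.6% of all genes were called in the 3 comparisons, some list counts moved. On starvation 4 import genes were higher and 7 lower, 3 other proteases higher and 2 lower, 1 other chaperone or assembly factor higher and 4 lower, 4 stress regulators higher and 3 lower, 12 cytosolic and ER genes higher and 2 lower, and 5 DNA maintenance genes higher and 1 lower. In knockdown against starved cells 8 import genes were higher and 8 lower, and their median was 0.18 in place of -0.11. In the same comparison 3 cytosolic and ER genes were higher and 10 lower, and 1 DNA maintenance gene higher and 6 lower. Against fed cells 2 proteases, 2 chaperones or assembly factors and 2 import genes were higher, and 4, 1 and 4 lower. For cytosolic and ER genes the counts against fed cells were 4 higher and 3 lower, and for stress regulators 3 higher and 1 lower. Of the mitochondrially encoded mRNAs 1 was higher and 0 lower on starvation, 1 higher and 2 lower in knockdown against starved cells, and 0 higher and 1 lower against fed cells. For the dynamics and removal genes these counts were 2 and 1, 3 and 3, and 3 and 1.

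Of the calls on named genes beside the 10, those of DDIT3, MT-ND6 and PINK1 in knockdown against starved cells rested on these libraries. DDIT3 was at -0.44 without knockdown replicate 3 (limma adjusted p = 0.0626), at -0.61 without starved replicate 2 (0.0721) and at -0.37 without both (0.104). Without knockdown replicate 3, MT-ND6 was at 0.53 (limma adjusted p = 0.0960) and PINK1 at 0.36 (0.0579), while without both libraries they passed at 0.68 (0.0258) and 0.49 (0.00488).

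**Figure D5:**
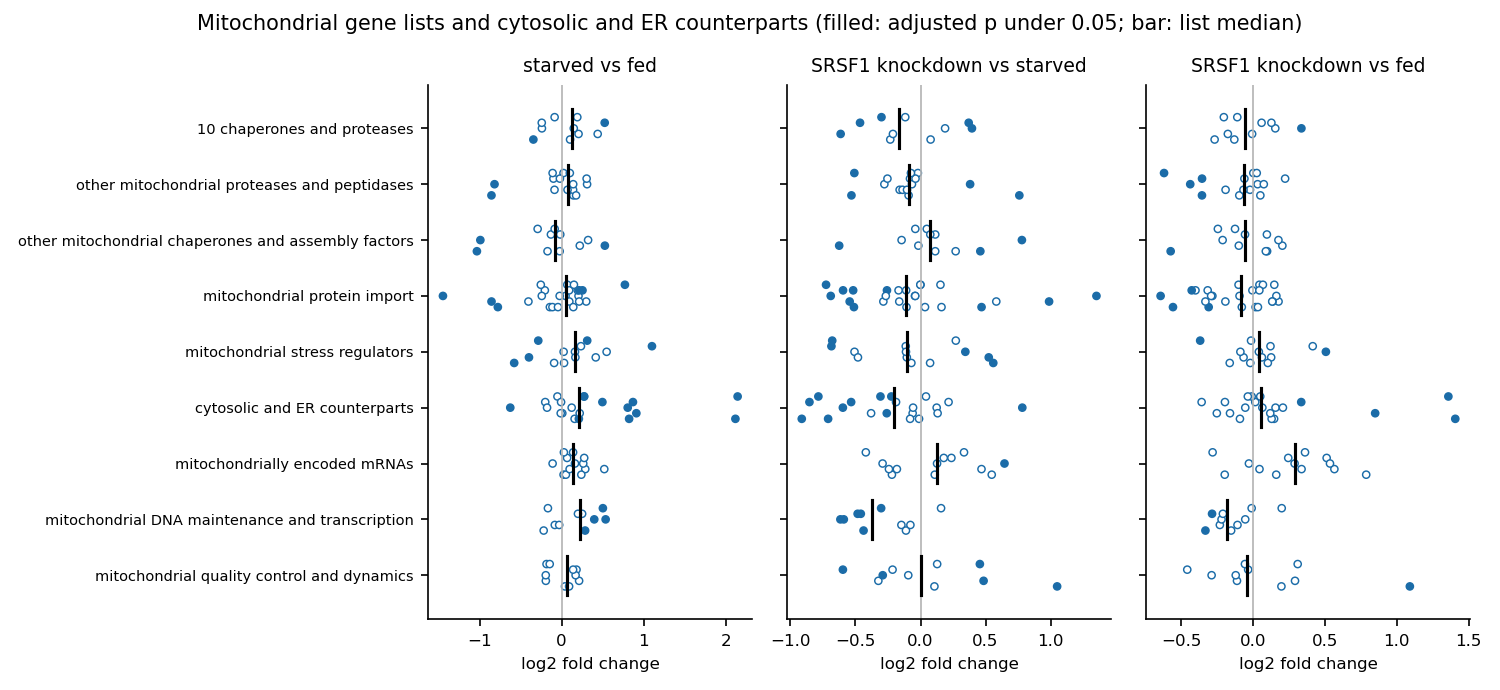
Log2 fold change on FPKM of the measured genes of each list in the 3 comparisons (points; filled, limma adjusted p under 0.05; bars, list medians; horizontal axes differ). The medians of the 10 chaperones and proteases (0.13, -0.16 and -0.06) lie near 0, and HSPA1A and HSPA1B are the 2 genes farthest to the right on starvation.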

How the data were processed

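Messenger RNA libraries were made with a SMARTER kit from 293T cells, per the labels' protocols. The deposited table has 9 libraries, 3 each of fed, starved and SRSF1 knockdown cells. Its signal values are, in each library, whole multiples of 1 step (100% of values, relative tolerance 1e-08) whatever the gene length, so the authors deposited read counts divided by 1 size factor per library, although its name says FPKM. Which aligner and counter were used is not given in the sources used here. A mouse build, mm10, stands in the submitters' processing notes, but of 19849 gene identifiers known to GENCODE release 29, 19801 had GRCh38 coordinates that overlap.

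FPKM was computed from the values, each library's total and the deposited gene lengths. The level filter kept 11133 of 19966 genes, those with 1 FPKM or more in 3 or more libraries. Log2(FPKM + 1) was compared with limma (trend, 3 group means over 9 libraries, two-sided, Benjamini-Hochberg adjustment over all kept genes, called at 0.05). Fold changes are on that scale, which understates changes of low genes. The deposited scale is log2(value + 1) for the same genes.

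The 10 genes, the 8 lists beside them and the tests were chosen with earlier results of these data known. Named genes were the 10, SRSF1, up to 4 of each list with the largest called changes in a comparison, and the 5 nearest in pattern to HSPD1 and CLPP. HSPA4, HSPA5 and ATF4, outside that rule, were named after their values were seen. Settings varied were the pseudocount, filter, scaling, trend, groups in the fit, replicate block, each library left out and edgeR's quasi-likelihood test on recovered reads of 8 libraries. The deposited scale, removal of GC trends (lowess span 0.3), leaving out 2 libraries together and the list counts without them were added after seeing the data. The fit was tested on simulated data. Fits used limma 3.58.1 and edgeR 4.0.16 in R 4.3.3. Sequences were read with pandas 2.3.3 in Python 3.11.15, and matplotlib 3.10.9 drew the figures.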

Additional observations from a re-analysis of the deposited data

How the results depend on the processing

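Over 22 other settings, GRPEL1 kept its direction and call in both of its comparisons. Of the settings that moved a count or median past the limit set, a filter of 5 FPKM gave 2912 called genes for starved against fed cells (4577 as reported) and 3262 for knockdown against starved cells (4957), since fewer genes were tested. For starved against fed cells the members called numbered 5 in place of 2 with median ratio scaling, with the deposited scale and with GC trends removed, and 6 without starved replicate 2 and knockdown replicate 3 together; the median member change was 0.21, 0.22, 0.22 and, with edgeR on 8 libraries, 0.24, against 0.13. For knockdown against starved cells 2 members in place of 5 were called with only the 2 groups in the fit and with edgeR. For knockdown against fed cells 2 in place of 1 were called with a filter of 5 FPKM, without the trend and with GC trends removed (median 0.024 with GC trends removed, against -0.06), and 3 without the 2 libraries together (median 0.056, 3626 genes called in place of 2023).

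Leaving out 1 library gave 3512 to 5623, 3948 to 5409 and 824 to 2424 called genes in the 3 comparisons, 2 to 6, 2 to 5 and 0 to 3 called members, and medians from 0.05 to 0.16, -0.17 to -0.10 and -0.096 to 0.056. The lowest count, 824, came without fed replicate 1, followed by 979 without fed replicate 2 and 1053 without fed replicate 3.

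Signs turned only for changes that did not pass on FPKM with all libraries. For starved against fed cells these were HSPA9 (0.0040 on the deposited scale) and CLPP (-0.032 without starved replicate 2, alone or with knockdown replicate 3). For knockdown against starved cells they were HSPD1 (-0.00067) and CLPP (0.12), both without the 2 libraries together. CLPP had passed as lower in 1 setting, with GC trends removed. For knockdown against fed cells CLPX (-0.006 as reported) was at 0.0146 with median ratio scaling, 0.0214 with quantile scaling, 0.0157 with edgeR, 0.0177 on the deposited scale and 0.0825 with GC trends removed, and from -0.0614 to 0.0612 with 1 library left out. HSPE1 (0.0831) and CLPP (0.0885) turned without knockdown replicate 3, alone or with starved replicate 2, and GRPEL1 (-0.00025) without knockdown replicate 2; the lowest values with 1 library left out were -0.34 for HSPE1 and -0.25 for CLPP. The causes were not tested.

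With the replicate block 4557, 5030 and 1969 genes and 3, 5 and 1 members were called; LONP1 passed in starved against fed cells (adjusted p = 0.0482 by limma) and no other member's call changed. Whether equal numbers mark paired libraries is not said in the labels. Correlations of deviations between same-numbered libraries ran from -0.56 to 0.62, and were 0.09, 0.62 and 0.37 between starved and knockdown libraries. Deviations from a mean of 3 libraries depend on each other, so these values cannot decide the question. HSPE1 had no value under the filter of 5 FPKM. Its 30 to 110 reads limit its precision.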
